A study of Mus musculus with 12 samples.

Results

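The Notch pathway was examined through 10 genes in tumors of LSL-MYCN;hGFAP-Cre mice: the ligands Dll1, Dll3, Dll4, Jag1 and Jag2, the receptors Notch1, Notch2 and Notch3, and the targets Hes1 and Hey1. They were chosen by name, and every probe set that the array annotation assigns to one of these symbols was taken, which gave 17 probe sets among 45037 and 10 genes among 18193. RNA came from 9 pancreatic tumors and 3 tumors labelled as brain tumors, all untreated, with 1 Affymetrix array per tumor. The tumors keep their label numbers, with pancreatic tumors 1 to 5 and 9 to 12 and brain tumors 6 to 8. Both groups carry the same pair of transgenes on a mixed background of several inbred strains, FvB and B6 among them. A floxed stop stands before MYCN and luciferase, and Cre is driven by the human GFAP promoter, so the transgene is switched on in cells that use or have used that promoter, and not in 1 chosen cell type. The labels give no age or sex for the mouse behind an array.

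The paper places the head tumors at the pituitary gland, and they are called pituitary tumors here. Of 11 measured anterior pituitary genes, 9 had higher signals here (limma, adjusted p under 0.05) and 2 did not pass, where 4.5% of all genes were higher. Growth hormone (Gh) had log2 signals of 14.65, 14.80 and 14.87 in tumors 6, 7 and 8 and at most 6.27 in any pancreatic tumor. In the pancreatic tumors, 5 of 8 endocrine pancreas genes had higher signals by the same test and 3 did not pass, where 1.61% of all genes were higher. The labels of both groups were thus met by their defining genes.

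Some tumors stood apart. Pancreatic tumor 2 had the lowest mean signal over 7 neuroendocrine markers, 8.61 against 11.49 to 12.74 in the other pancreatic tumors, and the highest over 9 hepatocyte genes, 14.09. That hepatocyte mean was 11.12 in tumor 3, 11.44 in tumor 4 and at most 7.64 elsewhere. Among the pituitary tumors, the mean over 10 genes of astrocytes and related glia was 10.79 in tumors 6 and 8 and 7.00 in tumor 7, and over 8 neuronal genes it was 10.55, 7.59 and 10.45 in tumors 6, 7 and 8. In pancreatic tumor 5 the Gapdh control probes near the 3′ end exceeded those near the 5′ end by 2.29 (log2), against -0.22 to 0.96 in the other 11 tumors, a sign of shorter RNA. The same difference was lowest, at -0.22 to -0.12, in pancreatic tumors 10, 11 and 12. The labels name no batch. Some mice bore a tumor at each site, and a mouse may thus have given more than 1 array, but the arrays concerned are not named, and every tumor counts as independent in the tests.

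Notch signaling passes between touching cells. A ligand of the Delta-like or Jagged family on one cell binds a Notch receptor on the next, proteases then cut the receptor, and its freed inner part enters the nucleus, joins RBPJ on DNA and switches on repressors of the Hes and Hey families. In the developing pancreas Hes1 holds back Neurog3 and with it the endocrine fate, and in the pituitary the pathway is known for keeping progenitors from maturing early. Blood vessels use it too, with Dll4 and Jag1 in endothelium and Notch3 in the mural cells around it.

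Since RBPJ binds the letters TGGGAA, the promoters of these genes were searched for this core on both strands, and for GTGGGAA, which contains it. Windows of 250 bases before to 50 after the start were taken from RefSeq (GRCm38.p6), and 8 of the 10 members had at least 1, in 9 windows with both starts of Dll1. Hes1 and Hey1, the targets among the members, had no entry, so all 9 windows belong to ligands and receptors. The core was present in 0 of the 9 member windows and in 25.6% of all 32851 windows, and GTGGGAA was present in 6.38% of all. Among the other Notch targets considered below, only Hey2 was searched, because it was the gene past the test. Its window held GTGGGAA at the start site (bases -4 to 3, with no base 0). It held the motif again on the other strand at -207 to -201, written there as TTCCCAC. Whether targets that did not pass hold the motif was not tested. The windows of Jag2, the member past the test, and of Hey2 are shown from 250 bases upstream to the start site (for Hey2 to base 3), both from the minus strand and written 5′ to 3′, with capitals for the motif. Jag2 lies at chr12:112929496-112929745 and Hey2 at chr10:30842781-30843033. A match of letters describes the sequence and does not show binding.
Jag2: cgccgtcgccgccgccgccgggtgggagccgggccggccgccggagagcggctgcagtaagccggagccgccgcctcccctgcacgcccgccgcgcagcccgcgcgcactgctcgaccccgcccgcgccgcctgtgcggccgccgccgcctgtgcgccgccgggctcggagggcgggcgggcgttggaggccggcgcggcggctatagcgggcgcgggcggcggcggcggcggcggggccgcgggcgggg
Hey2: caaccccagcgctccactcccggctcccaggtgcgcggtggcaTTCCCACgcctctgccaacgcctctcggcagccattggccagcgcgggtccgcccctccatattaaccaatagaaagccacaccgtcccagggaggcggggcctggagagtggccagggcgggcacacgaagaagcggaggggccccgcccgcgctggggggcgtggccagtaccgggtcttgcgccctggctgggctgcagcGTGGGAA

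Between the sites, 1 member passed the test and 9 did not. Jag2 was higher in the pancreatic tumors, Hey1 had the largest difference in the opposite direction without passing, and the other 8 members differed by less than 1 on the log2 scale. Each gene was read from its representative probe set, the one whose mean of the group means is highest, and each difference is the pancreatic mean minus the pituitary mean in log2 units, tested with limma at an adjusted p under 0.05. Of the 10 members, 1 was higher in the pancreatic tumors, where 1.61% of all genes were, and 0 were higher in the pituitary tumors, where 4.5% of all genes were. Of the 17 member probe sets, 1 passed in either direction, against 4.63% of all probe sets. For 0 of the 10 members did the groups not overlap, against 9.56% of all genes. Before adjustment, 2 of the 10 members and 4327 of all 18193 genes had a p under 0.05. The median difference over the members was 0.24, with 6 above 0 and 4 below, and over all genes it was 0.03. Tumors are mixtures, so fewer cells of a type and less RNA per cell cannot be told apart in any of these values.

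**Figure D1:**
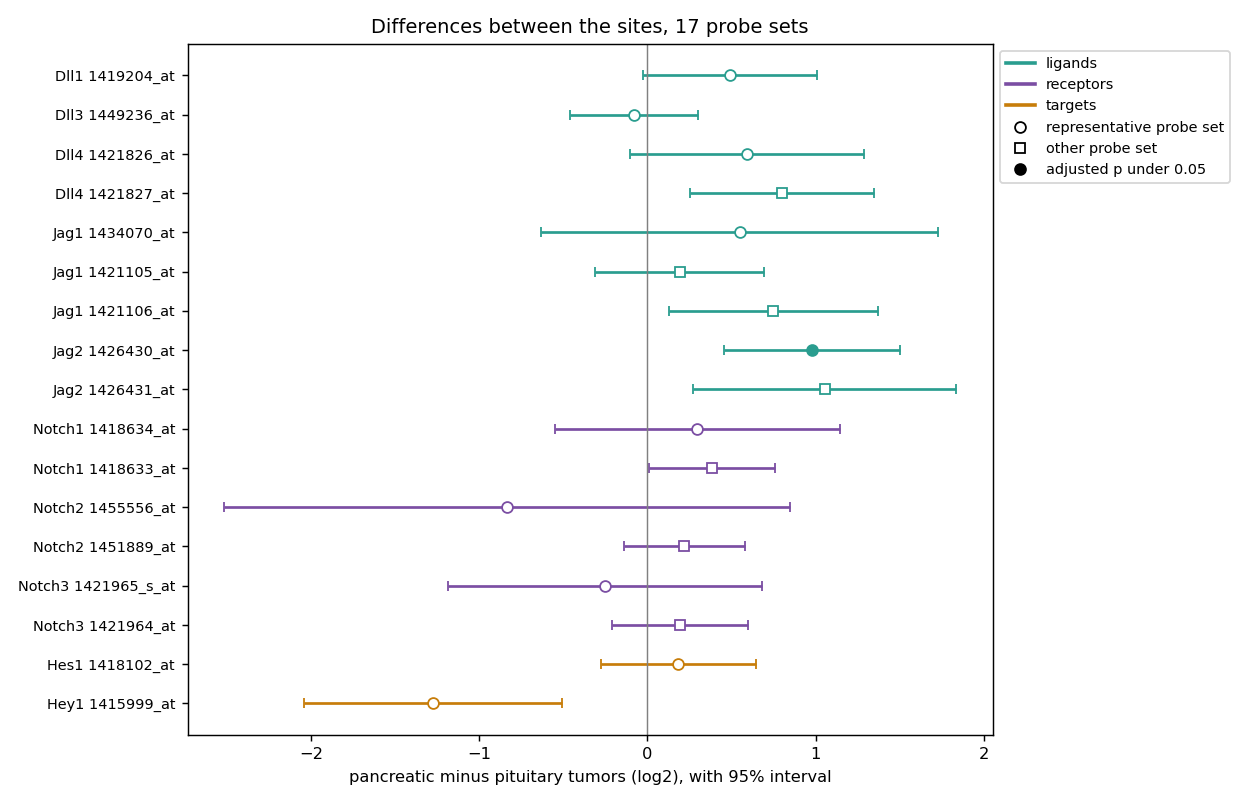
Difference between pancreatic and pituitary tumors (x axis, log2, with the 95% interval) for each of the 17 member probe sets, colored by role, with circles for representative and squares for other probe sets and a filled symbol for an adjusted p under 0.05. Jag2 1426430_at is the only filled symbol, at 0.98, and Hey1 lies lowest, at -1.27.

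Of the ligands, Jag2 was the member past the test. Jag2 encodes a Jagged ligand. Its log2 signal was 7.32 to 8.67 in the pancreatic tumors (median 8.20, mean 8.24 ± 0.39, SD, n = 9) and 7.45, 7.35 and 6.98 in pituitary tumors 6, 7 and 8 (mean 7.26 ± 0.25, SD, n = 3). All pancreatic tumors but tumor 2 were at 8.13 or above and lay over the 3 pituitary tumors, and tumor 2, at 7.32, lay among them. The difference was 0.98 (standard error 0.24), or 1.97-fold with a 95% interval of 1.37 to 2.83 (adjusted p = 0.0394, limma). A second Jag2 probe set, 1426431_at, gave 7.67 ± 0.61 (SD, n = 9) and 6.61 ± 0.41 (SD, n = 3), a difference of 1.05 that did not pass (adjusted p = 0.125). The call rested on few arrays. With 1 tumor left out at a time, the difference stayed between 0.84 and 1.09, and the call was kept without tumor 2 (adjusted p = 0.00206) or tumor 5 (0.0486) and lost without any of the other 10 tumors, up to 0.209 without pituitary tumor 8. It was lost as well without pancreatic tumors 10, 11 and 12, where the difference was 0.90 (adjusted p = 0.159).

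Jag1 encodes the other Jagged ligand, known from vessels and ducts. It spread far more among the pancreatic tumors, with log2 signals from 5.26 in tumor 11 to 8.11 in tumor 5 (median 7.39, mean 7.21 ± 0.99, SD, n = 9), than among pituitary tumors 6, 7 and 8, at 6.51, 6.69 and 6.79. Tumors 1, 4, 5 and 9 lay near 8, and tumors 2 and 11 lay below every pituitary tumor. The difference of 0.55 (standard error 0.54, 95% interval -0.63 to 1.73) did not pass (adjusted p = 0.617). The other probe sets, 1421106_at and 1421105_at, differed by 0.75 (adjusted p = 0.169) and 0.19 (adjusted p = 0.688), with nearly all values below the median of their array, taken here as the level at which a signal cannot be told from background.

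Dll1 and Dll4 encode Delta-like ligands, the first known from progenitors and the second from endothelium. Dll1 had log2 signals of 5.96 to 7.06 in the pancreatic tumors (median 6.57, mean 6.54 ± 0.39, SD, n = 9) and of 6.12, 6.22 and 5.82 in pituitary tumors 6, 7 and 8. Of the pancreatic tumors, 6 exceeded all pituitary tumors, and the difference was 0.49 (standard error 0.24, 95% interval -0.02 to 1.01, adjusted p = 0.281). Dll4 reached 6.57, 6.38 and 6.08 in pancreatic tumors 12, 9 and 11 and lay between 4.80 and 5.61 in the other 6, with 5.13, 5.17 and 4.94 in pituitary tumors 6, 7 and 8. It was above the array median in 5 of 9 pancreatic and 0 of 3 pituitary tumors, and its difference was 0.59 (standard error 0.32, 95% interval -0.10 to 1.29, adjusted p = 0.335). The second Dll4 probe set, 1421827_at, differed by 0.80 (adjusted p = 0.0983) with an unadjusted p of 0.00788.

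Dll3 encodes a ligand that does not activate Notch on neighboring cells and is known from neuroendocrine tumors of the lung. Here its signal was below the array median in all 12 tumors. It was 3.88 to 4.52 in the pancreatic tumors (median 4.27) and 4.65, 4.13 and 4.01 in pituitary tumors 6, 7 and 8, so that the groups overlapped (difference -0.08, standard error 0.18, 95% interval -0.46 to 0.30, adjusted p = 0.835). Neither group gave a Dll3 signal that could be told from background by that measure.

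**Figure D2:**
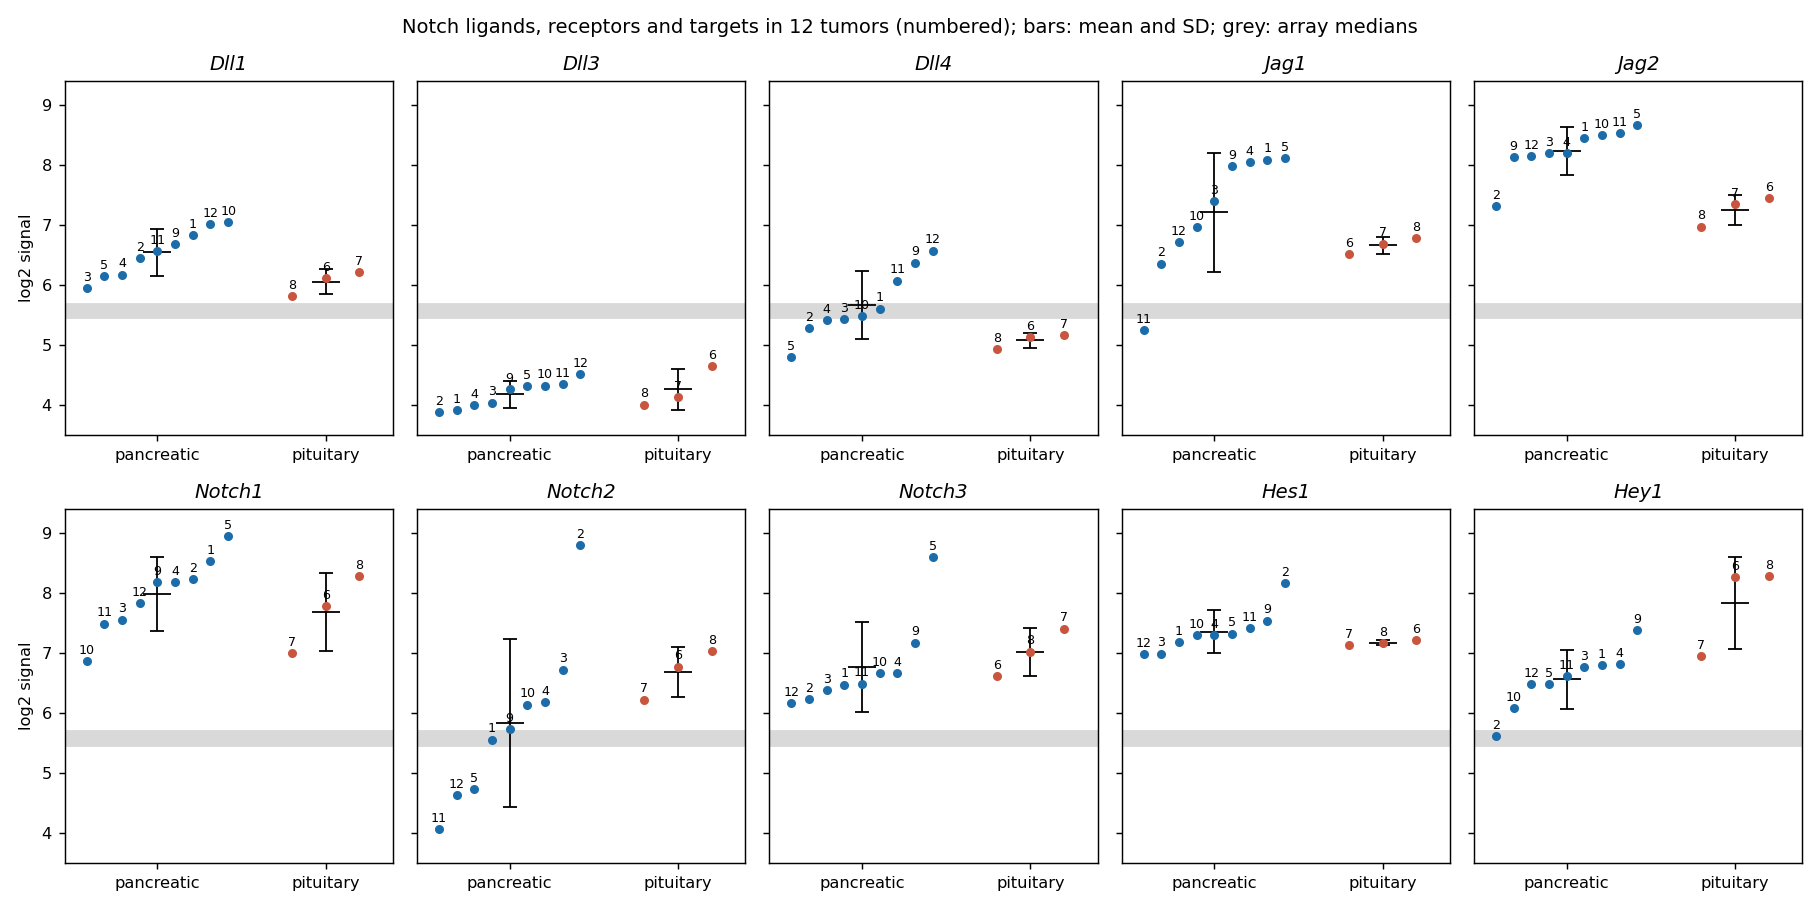
Log2 signal (y axis) of the representative probe set of each member in each tumor, by site, with tumor numbers, the mean and SD of each group as a bar, and the range of the 12 array medians (5.45 to 5.69) as a gray band. Jag2 lies higher in all pancreatic tumors but tumor 2, Hey1 is highest in pituitary tumors 6 and 8, and Notch2 in tumor 2 and Notch3 in tumor 5 lie far above the other pancreatic tumors.

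None of the 3 receptors passed the test, and each difference was smaller than the SD among the pancreatic tumors. Notch1 had log2 signals of 6.86 to 8.94 in the pancreatic tumors (median 8.18, mean 7.98 ± 0.62, SD, n = 9) and 7.77, 6.99 and 8.28 in pituitary tumors 6, 7 and 8, and lay above the array median in all 12. The ranges overlapped along most of their length (difference 0.30, standard error 0.39, adjusted p = 0.715), and the value was -0.05 without pituitary tumor 7. Its second probe set, 1418633_at, was 6.67 to 7.55 in the pancreatic and 6.66 to 6.80 in the pituitary tumors (difference 0.38, adjusted p = 0.246).

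Notch2, a receptor known from bile duct and progenitor cells, had the widest range of the 10 members. It was highest in pancreatic tumor 2, at 8.79, followed by 6.72 in tumor 3, 6.18 in tumor 4 and 6.14 in tumor 10, and it fell below the array median in tumors 5, 11 and 12 (4.73, 4.06 and 4.63). Pituitary tumors 6, 7 and 8 had 6.77, 6.22 and 7.03, inside this range. The difference was -0.84 (standard error 0.77, 95% interval -2.52 to 0.85, adjusted p = 0.589). It was -1.53 without pancreatic tumors 2, 3 and 4 (adjusted p = 0.0970) and -0.39 without tumors 10, 11 and 12. The second probe set, 1451889_at, had the opposite sign (0.22, adjusted p = 0.499) and was below the array median in all tumors but pancreatic tumor 10, so the probe sets disagreed.

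Notch3, the receptor of vascular mural cells, had a log2 signal of 8.59 in pancreatic tumor 5 and 6.16 to 7.17 in the other 8. Pituitary tumors 6, 7 and 8 had 6.61, 7.40 and 7.02, so every pancreatic tumor but tumor 5 lay below the highest pituitary tumor. The difference was -0.25 (standard error 0.43, 95% interval -1.19 to 0.68, adjusted p = 0.783), and -0.44 without pancreatic tumors 2 and 5 (adjusted p = 0.254). The probe set 1421964_at had the opposite sign (0.20, adjusted p = 0.601) and read 5.23 in tumor 5, which did not stand apart there.

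The target genes differed in sign, and neither passed the test. Hes1, the repressor that restrains endocrine differentiation, had log2 signals of 6.97 to 7.54 in 8 pancreatic tumors and 8.17 in tumor 2. In pituitary tumors 6, 7 and 8 it had 7.21, 7.13 and 7.17, close together and inside the pancreatic range (difference 0.18, standard error 0.21, 95% interval -0.28 to 0.65, adjusted p = 0.670), and the value was 0.083 without pancreatic tumor 2.

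Hey1, a repressor known from vessels and neural progenitors, had log2 signals of 5.61 to 7.38 in the pancreatic tumors (median 6.61, mean 6.56 ± 0.50, SD, n = 9) and of 8.27, 6.94 and 8.28 in pituitary tumors 6, 7 and 8 (mean 7.83 ± 0.77, SD, n = 3). Tumors 6 and 8 lay above every pancreatic tumor, and tumor 7 lay below pancreatic tumor 9. The difference was -1.27 (standard error 0.35), which leaves the pancreatic tumors at 0.414 times the pituitary signal (95% interval 0.243 to 0.704), with an unadjusted p of 0.00353 and an adjusted p of 0.0623 (limma), past the threshold only before adjustment. The glial mean moved in the same way, at 10.79 in tumors 6 and 8 and 7.00 in tumor 7. So did the neuronal mean, at 10.55, 7.59 and 10.45 in tumors 6, 7 and 8, and the oligodendrocyte mean, at 8.07, 5.15 and 7.32. Of these lists, 6 of 10, 3 of 8 and 1 of 6 genes were higher in the pituitary tumors, where 4.5% of all genes were. Over the 9 pancreatic tumors, Pearson's r of Hey1 was -0.523 with the glial mean and 0.705 with the neuronal mean (0.29 without the 2 farthest tumors). Without tumor 7 the difference was -1.72 (adjusted p = 0.0131), without tumors 6 and 8 it was -0.38, and without pancreatic tumor 9 it was -1.38 (adjusted p = 0.0427). The part of glial, oligodendrocyte, neuronal or vascular RNA in the Hey1 signal was not tested.

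Across the 9 pancreatic tumors, the members did not move as 1 group. Over the pairs of members, Pearson's r ran from -0.824 (Jag2 and Notch2) to 0.618 (Notch2 and Hes1), with Spearman's rho of -0.533 and 0.167. Pancreatic tumor 2, with the low neuroendocrine and high hepatocyte signal, held the highest Notch2 and Hes1 and the lowest Jag2 and Hey1 of these tumors. All 9 values in such a correlation share the normalization of their arrays, and they are given as a description.

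Levels of vascular markers were set beside the members because vessels carry much of this pathway. The mean over 10 mural genes was 8.68 in pancreatic tumor 5, 8.36 in tumor 9 and between 6.87 and 7.85 elsewhere in that group, and the mean over 14 endothelial genes was 7.55 and 7.44 in tumors 5 and 9 and 6.07 to 6.94 in the others. Of these lists 0 of 10 and 0 of 14 genes passed the test between the sites. On its representative probe set, Notch3 followed the mural mean over the 9 pancreatic tumors (r = 0.865, rho = 0.833). Once the 2 tumors farthest from the median were left out, r was 0.743. With the endothelial mean Notch3 gave r = 0.835 (rho = 0.833), and 0.674 without the 2 farthest. Its probe set 1421964_at, above the array median in 2 of 9 pancreatic tumors, did not show this pattern. It was highest in tumor 11, at 5.79, and read 5.23 and 5.33 in tumors 5 and 9. Jag1 gave r = 0.754 with the mural mean (rho = 0.833), with all 9 tumors and without the 2 farthest. With the neuronal mean Jag1 gave r = 0.714 (rho = 0.917), and 0.84 without the 2 farthest tumors. The likeness of Jag1 was thus not limited to the vascular lists. Dll4, an endothelial ligand, had r = -0.085 with the endothelial mean on its representative probe set. In tumor 5, where that mean was highest, this probe set read 4.80, the lowest value of the group and below the array median, while 1421827_at read 5.52 there, second to tumor 9, so the probe sets disagreed. Tumor 5 is also the tumor with the widest gap between 3′ and 5′ control probes, and the part of RNA quality in its Notch3 and Dll4 signals was not tested.

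**Figure D3:**
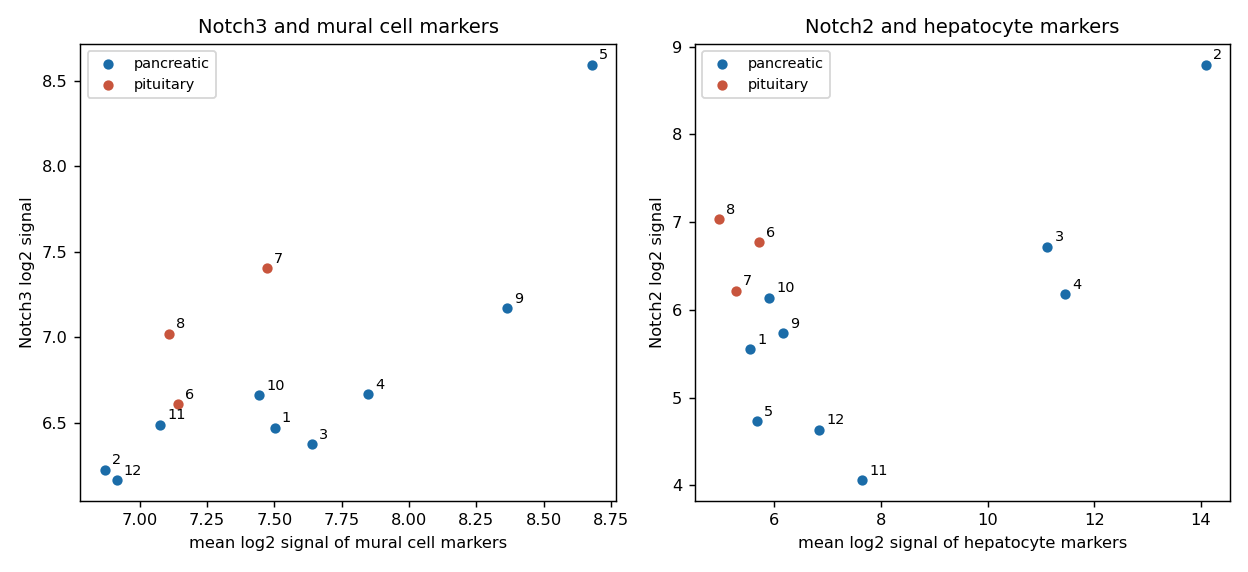
Left, Notch3 log2 signal (y axis) against the mean log2 signal of 10 mural cell markers (x axis), and right, Notch2 against the mean of 9 hepatocyte markers, for each numbered tumor by site. Tumor 5 is highest on both axes at left (8.68 and 8.59), and tumor 2 on both axes at right (14.09 and 8.79).

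Notch2 was highest in the tumor with the highest hepatocyte mean, a list added after the data were seen, and r over the 9 pancreatic tumors was 0.764 (rho = 0.533), falling to 0.388 without the 2 farthest tumors. Its r was larger with the mean of the glial list, at 0.892 (rho = 0.817) and 0.651 without the 2 farthest, and with the leukocyte list it was 0.534 (rho = 0.700) and 0.885 without them. Within the glial list, Aldh1l1 read 12.18, 8.40 and 8.79 in tumors 2, 3 and 4, those with the highest hepatocyte means, and 4.25 to 5.54 in the others. Gfap was 5.67 to 6.32 and Slc1a3 3.65 to 4.43 over the 9 tumors. Gfap, Aqp4, Slc1a2, Fabp7 and Sox9 were also highest in tumor 2. There Aqp4 read 7.61 and Slc1a2 7.14, against at most 3.66 and 4.77 in the others. Slc1a3, Aldoc, S100b and Gja1 were highest in other tumors. The part of Aldh1l1 or of any other of these genes in the glial r was not tested. The next tumors in hepatocyte mean, 4 and 3, were the third and the second in Notch2. Hes1 and the neuroendocrine mean gave r = -0.801 (rho = -0.483), and -0.474 without the 2 farthest. Jag2 and the neuroendocrine mean gave r = 0.810 (rho = 0.317), and -0.265 without them, so this value rested on those tumors. The part of liver tissue in these signals was not tested. For Jag2 the difference between the sites was 1.14 without tumors 2, 3 and 4 (adjusted p = 0.0078, limma) and 1.09 without tumor 2 alone. Tumor 2 had the lowest pancreatic Jag2, so leaving it out raises the difference. It also had the highest hepatocyte mean, and the part of liver tissue in its Jag2 signal cannot be told apart in this setting.

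**Figure D4:**
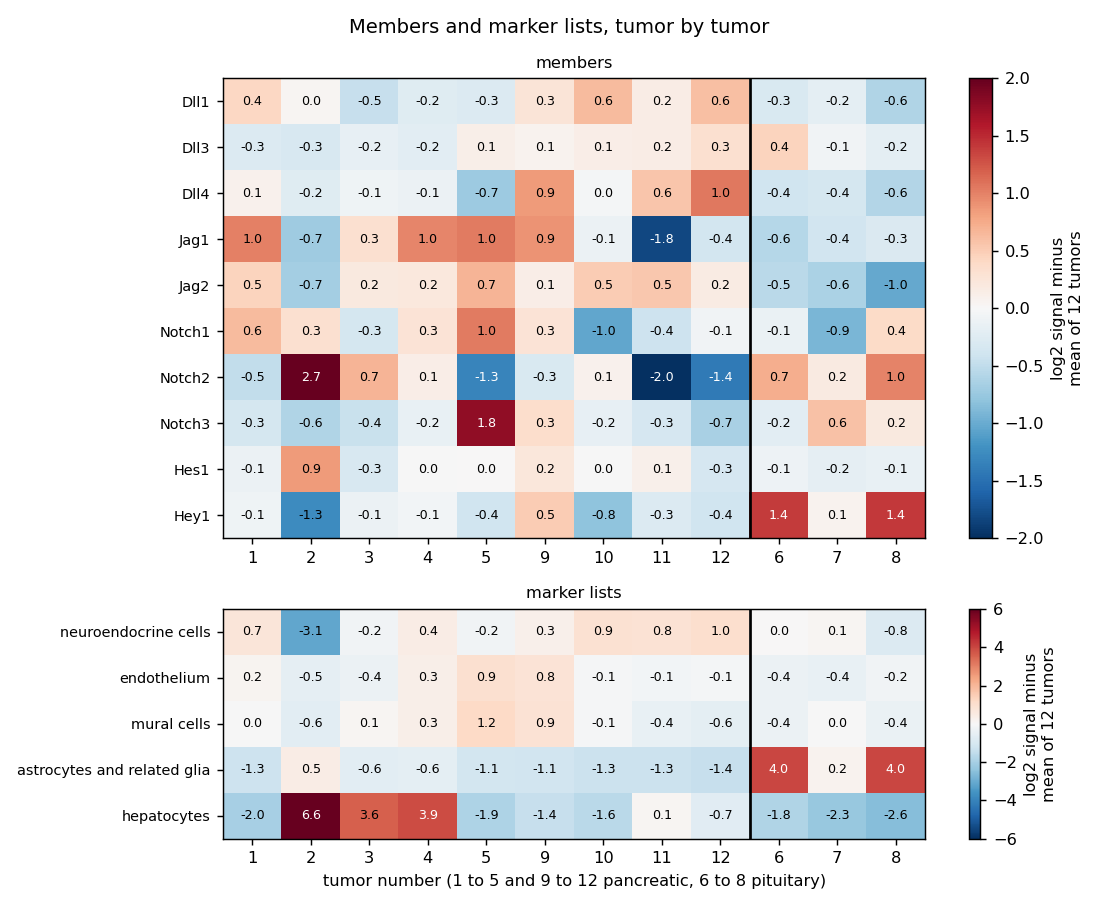
Log2 signal minus the mean of the 12 tumors (color and printed value) for the 10 members, top, and for the means of 5 marker lists, bottom, with a column per tumor and a black line between pancreatic and pituitary tumors. In tumor 2 high Notch2 and Hes1 stand above a low neuroendocrine and a high hepatocyte mean, in tumor 5 high Notch3 stands above high endothelial and mural means, and in tumors 6 and 8 high Hey1 stands above a high glial mean.

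The genes whose pattern over the 9 pancreatic tumors was most like that of a member were sought among 9880 genes above the array median in all of them. For Jag2 these were Rab27b (r = 0.974), a small GTPase of secretory granules, Ncdn (0.965), a neuronal protein, and Csnk1e (0.959), a casein kinase, which gave 0.806, 0.789 and 0.698 without the 2 farthest tumors. Glrx, Mpp1 and Aamdc were closest to Notch2 (0.990, 0.975 and 0.972), and Elmo1, Mbnl2 and Ramp1 to Hey1 (0.975, 0.953 and 0.948), and these 6 stayed at 0.827 or above. For Notch3, Csnk2a2 (0.966) and Smarcc1 (0.964) fell to 0.335 and 0.314 without the 2 farthest tumors, and Pdap1 (0.960) to 0.796. These values describe likeness over 9 tumors, and nothing about shared function follows from them.

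The rest of the pathway was read from 7 lists with 68 genes, of which 63 were measured. Of these, 1 was higher in the pancreatic tumors (1.61% of all genes were), 5 were higher in the pituitary tumors (4.5% of all genes were) and 57 did not pass, with a median difference of -0.03. The genes past the test were spread over 4 of the 7 lists. For 9 of the 63 measured genes the groups did not overlap, against 9.56% of all genes.

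The largest differences were among other ligands, where 3 of 6 genes were higher in the pituitary tumors. Dlk1 encodes a ligand-like protein of endocrine and progenitor cells that lacks the domain other ligands use to activate Notch. It had log2 signals of 12.25, 12.65 and 13.17 in pituitary tumors 6, 7 and 8 and 5.48 to 9.91 in the pancreatic tumors (median 7.53), a difference of -4.88 (standard error 0.95, adjusted p = 0.0131). Within the pancreatic tumors it was highest in tumors 10, 12 and 1, and its second probe set differed by -3.98. Dner, a neuronal ligand, had 11.63, 11.56 and 12.54 in pituitary tumors 6, 7 and 8 and 5.25 to 9.50 in the pancreatic tumors, lowest in tumor 2 (difference -3.53, standard error 0.73, adjusted p = 0.0174). Cntn1, a contactin of neurons and glia that can bind Notch, had 11.56, 10.54 and 12.14 in them and 4.08 to 9.57 in the pancreatic tumors (difference -5.03, standard error 1.04, adjusted p = 0.0181).

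For these 3 genes the groups did not overlap, and pituitary tumor 7 lay above every pancreatic tumor as tumors 6 and 8 did. Its neuronal and glial means were lower than those of tumors 6 and 8. Its neuronal mean, at 7.59, still exceeded that of every pancreatic tumor (at most 7.17). The part of neuronal or glial RNA in the Dlk1, Dner and Cntn1 signals was not tested. The calls were lost without tumor 6 or without tumor 8, with adjusted p of 0.0546 and 0.0773 for Dlk1, 0.071 and 0.106 for Dner, and 0.0917 and 0.104 for Cntn1, while the differences kept their size (-5.10 and -4.64, -3.67 and -3.22, -4.96 and -4.67). Dlk1 also lost the call without pancreatic tumors 2, 3 and 4 (adjusted p = 0.0538), and Dner and Cntn1 without tumors 10, 11 and 12 (0.0671 and 0.0663). The remaining receptor, Notch4, known from endothelium, differed by 0.17 (adjusted p = 0.830), and the ligand Cntn6 by -1.78 (adjusted p = 0.115), with 1 of 12 tumors, pituitary tumor 8, above its array median at 6.95. The Cntn6 value turned on single pituitary tumors, at -2.82 without tumor 7 (adjusted p = 0.00133) and -0.69 without tumor 8, and it passed with array weights (adjusted p = 0.0351).

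**Figure D5:**
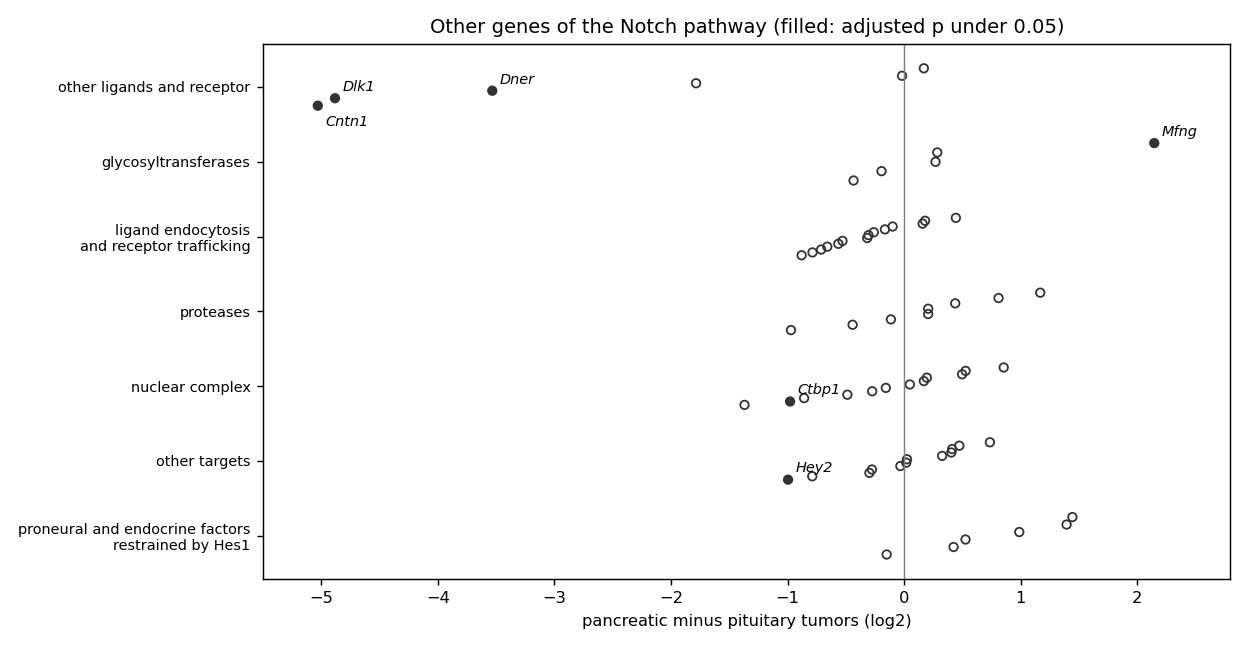
Difference between pancreatic and pituitary tumors (x axis, log2) for each of the 63 other measured genes of the pathway, in 7 rows by role and spread within a row for legibility, with filled points for an adjusted p under 0.05. The 6 filled points are Mfng, at 2.15 on the right, and Cntn1, Dlk1, Dner, Hey2 and Ctbp1 on the left, and most others lie within 1 of 0.

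Among the glycosyltransferases, which add sugars to Notch and tune its choice of ligand, 1 of 5 genes was higher in the pancreatic tumors. Mfng, a Fringe enzyme, had log2 signals of 6.78 to 9.96 in the pancreatic tumors (median 8.76) and 6.70, 6.55 and 6.28 in pituitary tumors 6, 7 and 8. The groups did not overlap, although pancreatic tumor 2, at 6.78, came close. The difference was 2.15, or 4.43-fold with a 95% interval of 1.91 to 10.3 (adjusted p = 0.0499), at the edge of the threshold. With 1 tumor left out at a time it was 1.98 to 2.38, and the call was kept only without pancreatic tumor 2 or 9. Pofut1, which adds the first fucose, differed by -0.43 (adjusted p = 0.334), and Lfng, another Fringe enzyme, by 0.28 (adjusted p = 0.737).

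Genes of ligand endocytosis and receptor trafficking gave 0 calls among 14, with differences from -0.88 for Dtx1 (adjusted p = 0.421) to 0.44, and Neurl1a at -0.79 (adjusted p = 0.398) on its representative probe set. Its other 5 probe sets had the opposite sign, at 0.26 to 0.83, and did not pass (lowest adjusted p = 0.0504). Of the proteases that mature and cut Notch, 0 of 8 passed. Aph1b, a subunit of γ-secretase, was closest, with 7.18 to 8.21 in the pancreatic and 8.27 to 9.04 in the pituitary tumors, which did not overlap (difference -0.97, adjusted p = 0.0549). It passed with array weights (adjusted p = 0.0145) and with the mean of its probe sets (0.0464), and the difference was -0.51 without tumors 6 and 8. Ncstn, another subunit, differed by 1.17 with a standard error of 0.89 (adjusted p = 0.507). It read 9.29 to 9.53 in pancreatic tumors 10, 11 and 12, those with the lowest 3′ minus 5′ difference of the control probes, and 5.46 to 7.38 in the other 6, and without these 3 tumors the difference was 0.15.

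In the nuclear complex and its regulators, 1 of 12 genes passed. Ctbp1, a corepressor, had 9.80 to 10.98 in the pancreatic tumors and 11.29, 11.46 and 11.59 in pituitary tumors 6, 7 and 8, with no overlap and a difference of -0.98 (standard error 0.23, adjusted p = 0.0338). It kept the call when pancreatic tumor 1, 2, 4, 5 or 9 was left out and lost it without each of the other 7, up to 0.165 without pituitary tumor 8. It was lost as well with quantile normalization (adjusted p = 0.0520), without moderation (0.0559), without tumors 10, 11 and 12 (0.156) and without tumors 6 and 8 (0.616). Fbxw7, which marks the freed Notch domain for destruction and also MYC proteins, had 7.41 to 8.80 in the pancreatic tumors and 10.35, 8.59 and 9.78 in pituitary tumors 6, 7 and 8, a difference of -1.37 (adjusted p = 0.0539). Like Hey1 it was highest in the tumors with the high glial and neuronal means. Its difference was -1.86 without tumor 7 (adjusted p = 0.00757) and -0.39 without tumors 6 and 8. Fbxw7 passed with array weights (adjusted p = 0.0129) and with the filter on dim probe sets (0.0441), and the part of glial or neuronal RNA in it was not tested. Rbpj, the DNA-binding partner itself, differed by -0.86 on its representative probe set (adjusted p = 0.198).

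Of 12 other targets, 1 passed. Hey2, the sister gene of Hey1 whose promoter window is shown above, had 4.77, 4.83 and 4.96 in pituitary tumors 6, 7 and 8 and 3.42 to 4.11 in the pancreatic tumors, with no overlap and a difference of -0.996 (standard error 0.16, adjusted p = 0.00441). The call held without any 1 of the 12 tumors (adjusted p of 0.00273 to 0.0323) and was lost without pituitary tumors 6 and 8 together (-0.97, adjusted p = 0.234). All 12 values were below the median of their array, so neither group gave a signal that could be told from background by that measure. Cdkn1a and Ccnd1, cell cycle genes that Notch can act on, differed by 0.74 (adjusted p = 0.592) and -0.79 (adjusted p = 0.428).

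Of 6 proneural and endocrine factors that Hes1 restrains, 0 passed. Neurog3, the factor that starts the endocrine program of the pancreas, had log2 signals of 4.51 to 7.25 in the pancreatic tumors (median 4.89) and 3.95, 4.04 and 3.44 in pituitary tumors 6, 7 and 8. The groups did not overlap, but only tumors 10, 9 and 5 were above their array median, and the difference of 1.44 did not pass (standard error 0.52, adjusted p = 0.146). Neurod1, which acts after it, had 7.52 to 11.61 in the pancreatic tumors, lowest in tumor 2, and 9.35, 6.37 and 12.71 in the pituitary tumors, with a difference of 1.39 (standard error 1.11, adjusted p = 0.523).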

How the data were processed

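RNA of 9 pancreatic and 3 brain (pituitary) tumors was hybridized to Affymetrix MG-430_2.0 arrays, 1 per tumor. The authors deposited a table of log2 signals with 1 value for each probe set and array, comparable between arrays. Their methods list Partek Genomics Suite and RMA, without saying which made the table. Arrays of normal pancreas, to which the study also compared, were not analysed here. Of 45101 probe sets, 64 controls were left out. Of the 45037 tested, 34945 carry 1 gene symbol in the platform annotation, 932 several and 9160 none in the table used, and no gene was named from a probe set with several. The RefSeq table held 34741 of those with 1 symbol, and 0 symbols changed. Where a gene has several probe sets, the one whose mean of the group means is highest stands for it. The table holds no detection calls, and a signal at or below the median of its array is taken as not above background.

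The sites were compared for every probe set in 1 fit with limma 3.58.1 (lmFit, eBayes; R 4.3.3), without covariates, at a Benjamini-Hochberg adjusted p under 0.05 over all 45037. Intervals are 95% intervals from the same fit. The fit was tested on simulated data. Correlations over the 9 pancreatic tumors are descriptions without a test, also given without the 2 tumors farthest from the median of the x measure. Dixon's test at the 5% level was used to find a tumor apart from the other 8. Promoter windows came from a RefSeq table. Summaries and figures were made in Python 3.11.15 with pandas 2.3.3, numpy 2.4.6 and matplotlib 3.10.9.

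The members, the 7 pathway lists and the 13 marker lists were chosen with earlier results of these data known. The hepatocyte list (Alb, Apoa1, Apoa2, Ahsg, Fgb, Tat, Cps1, Cyp2e1, Hpx and Serpina3k) and the setting without pancreatic tumors 2 and 5 were added after seeing the values. The text names all members, the pathway genes past the threshold and the 2 with the largest difference otherwise in each list, up to 3 genes of a marker list, and the 3 genes most like a member. Rbpj was added to these as the DNA-binding partner, and the glial list is named in full. Alternatives were array weights, quantile normalization, centring on the median, an unmoderated and a trended, robust variance, a filter at the array median in at least 3 tumors, the mean over a gene's probe sets, the probe set with the highest mean over the 12 tumors, each tumor left out in turn, and tumors 2, 3 and 4, tumors 10, 11 and 12, or tumors 6 and 8 left out together. The number of arrays limits the precision. Nothing in the sources states that tumors of 1 group came from different mice, so p-values measure the spread between these samples.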

Additional observations from a re-analysis of the deposited data

Results flagged for a closer look

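Dixon's test at the 5% level was run on 36 measures in the 9 pancreatic tumors and found 7 in which 1 tumor stood apart. Chance gives about 1 in 20 for independent measures. These 36 share the same tumors and include pathway genes taken because they passed the test, so no excess over chance follows from the count. Of these, 6 were in tumor 2. There the Jag2 log2 signal was 7.32 (8.13 to 8.67 in the others), Hes1 was 8.17 (6.97 to 7.54) and the ligand Dner was 5.25 (7.65 to 9.50). The same tumor had a mean of 8.61 over the neuroendocrine markers (11.49 to 12.74 in the others), 5.99 over the ductal markers (6.97 to 7.49) and 7.24 over the glial markers (5.40 to 6.19). Among those glial markers, Aldh1l1 read 12.18 in tumor 2 and at most 8.79 in the others. Aqp4 read 7.61 there and at most 3.66 in the others, and Slc1a2 7.14 and at most 4.77. Slc1a3, Aldoc, S100b and Gja1 were highest in other tumors. In tumor 5 the Notch3 log2 signal was 8.59 (6.16 to 7.17).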

How the results depend on the processing

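Over 24 alternatives, Dll1, Dll4, Jag1, Notch2, Notch3 and Hes1 kept their direction and stayed uncalled. Jag2 stayed positive in all 24 (0.84 to 1.15) and kept its call in 9. The count of members higher in pancreatic tumors fell from 1 to 0 with a trended and robust variance (Jag2 adjusted p = 0.0592), without moderation (0.0639), with the mean of its probe sets (0.0505), without tumors 10, 11 and 12 (0.159) and without tumors 6 and 8 (0.756), and ran from 0 to 1 with 1 tumor left out. Hey1 was called, so that the count higher in pituitary tumors rose from 0 to 1, with array weights (adjusted p = 0.0185) and with the mean of all probe sets (0.0483), and this count ran from 0 to 1 with 1 tumor left out. Over the other pathway genes the count higher in pancreatic tumors, 1, became 3 with array weights and 0 without moderation, without tumors 10, 11 and 12 or without tumors 6 and 8, and ran from 0 to 2 with 1 left out. The count higher in pituitary tumors, 5, became 9 with array weights, 2 without tumors 10, 11 and 12 and 0 without tumors 6 and 8, and ran from 1 to 8. Over all 18193 genes, 293 and 819 were called, with 947 and 1649 under array weights, 218 and 517 without moderation, 127 and 321 without tumors 10, 11 and 12, and 46 and 287 without tumors 6 and 8. The causes were not tested. Of the values named in the text, those whose sign turned did not pass as reported or where turned. These were Dll3 (0.024 without tumors 2, 3 and 4, 0.049 without tumors 6 and 8, and -0.21 to 0.11 with 1 tumor left out), Notch1 (-0.050 to 0.60 with 1 left out), Notch4 (-0.015) and Cntn6 (0.29) without tumors 6 and 8, Pofut1 (0.037) and Neurl1a (0.28) with the mean of all probe sets, Lfng (-0.049 with array weights, -0.16 without tumors 10, 11 and 12), Cdkn1a (-0.61 without tumors 6 and 8, -0.066 to 1.41 with 1 left out) and Neurod1 (-0.16 to 3.01 with 1 left out). The filter on dim probe sets removed Dll3, Hey2 and Cntn6, which have no value under it. No paired analysis was possible because the labels do not name the mouse behind an array.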
